A study of Drosophila melanogaster with 24 samples.

Results

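Replicate lines of *Drosophila melanogaster* selected for sensitivity to alcohol were compared with each other: sensitive line 1 (S1) against sensitive line 2 (S2). The comparison took 8 of the 24 arrays, chosen by their labels alone, with 2 arrays of males and 2 of females from each line. All lines came from a heterogeneous base population of a natural population at Raleigh and went through 35 generations, in which S1 and S2 were bred from the flies that ethanol vapor knocked out soonest in an inebriometer, a column through which intoxicated flies fall. Resistant lines (R1 and R2) and unselected control lines (C1 and C2) were kept beside them. RNA for the arrays was taken at generation 25. Each array held total RNA from whole bodies of 15 virgin flies of the same sex, 3 to 5 days old, reared at 25C on a light and dark cycle, and the 4 groups were S1 males, S1 females, S2 males and S2 females. The labels state for every sample, those of the control and resistant lines included, that the flies had met ethanol vapor before extraction; the methods of the study do not mention this for the arrays, so that constitutive and ethanol-induced levels cannot be told apart. Pools are the replicates, and each line is a single population, so the p-values below say nothing of other sensitive lines. Unless stated otherwise, they rest on a spread between pools of a group that was estimated over all 24 arrays. That spread therefore includes the pools of the control and resistant lines, and is not that of these 2 lines alone.

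Lines selected in parallel share the selected trait but are each bred from few parents, so that other alleles can drift apart between them. Flies clear ethanol mainly by oxidizing it to acetaldehyde and then acetate, while cytochrome P450s, glutathione S-transferases and UDP-glycosyltransferases act on foreign compounds in gut, fat body and Malpighian tubules. The fat body also secretes antimicrobial peptides under the Toll and Imd pathways, and the midgut secretes serine proteases and maltases that digest food. A whole-body sample mixes these tissues, and fewer cells of a type and less RNA per cell cannot be told apart in it.

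The measured quantity was the Signal of each probe set, an array intensity on a linear scale, which was taken to log2 with a floor of 1. A difference is S1 minus S2, so that a positive value means higher in S1, and was tested with limma over all 24 arrays for 11857 probe sets. A probe set was called at a Benjamini-Hochberg adjusted p under 0.05. The median Signal was 130.9 to 140.6 on the male arrays of the sensitive lines and 58.9 to 80.9 on the female ones. Sex markers followed the labels in both sensitive lines: the yolk protein transcripts *Yp1* and *Yp2* were at most 30.8 in males and at least 15206 in females, and the testis transcript *Mst87F* was at least 6919 in males and at most 14.7 in females. Pools of a group correlated at r = 0.958 to 0.986 over all 12 groups. The pools of S1 females stood apart, with the lowest correlation and 1479 probe sets over 2-fold apart, against 186 to 1295 in the other groups.

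The sensitive lines differed widely in transcript abundance. Over both sexes, 2929 of 11857 probe sets were called, 24.7% of those tested, with 1641 higher in S1 (13.8%) and 1288 higher in S2 (10.9%). Most differences were small: the median size among called probe sets was 0.57 on the log2 scale, and 589 (4.97% of those tested) were over 2-fold, 392 of them higher in S1 and 197 higher in S2. The fit called 1177 probe sets in males (9.93%), of which 491 were higher in S1 (4.14%) and 686 in S2 (5.79%). In females it called 2590 (21.8%), of which 1612 were higher in S1 (13.6%) and 978 in S2 (8.25%). The split turned on linear Signal, where an analysis of variance put 1053 female calls higher in S1 and 1487 in S2, and 813 and 693 male calls. Leaving out any of the 4 male pools brought the male count to between 577 and 773. Without pool 1 of S1 females the female count rose to 3798, with 51.8% higher in S1 in place of 62.2%, and without pool 2 of S2 females it fell to 1155.

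The differences of males and females, measured on separate arrays, had the same sign for 64.4% of all tested probe sets. In males and in females separately, 637 probe sets were called in the same direction, which is 54.1% of the male calls and 24.6% of the female calls, and 14 were called in opposite directions. The arrays of the lines did not overlap in either sex, in the same direction, for 26.7% of all tested probe sets. Among the 2929 called over both sexes, 96.3% had the same sign and 79.1% did not overlap, shares that the call on the average of the sexes raises by itself. The scatter of male against female differences shows the probe sets along the diagonal.

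**Figure D1:**
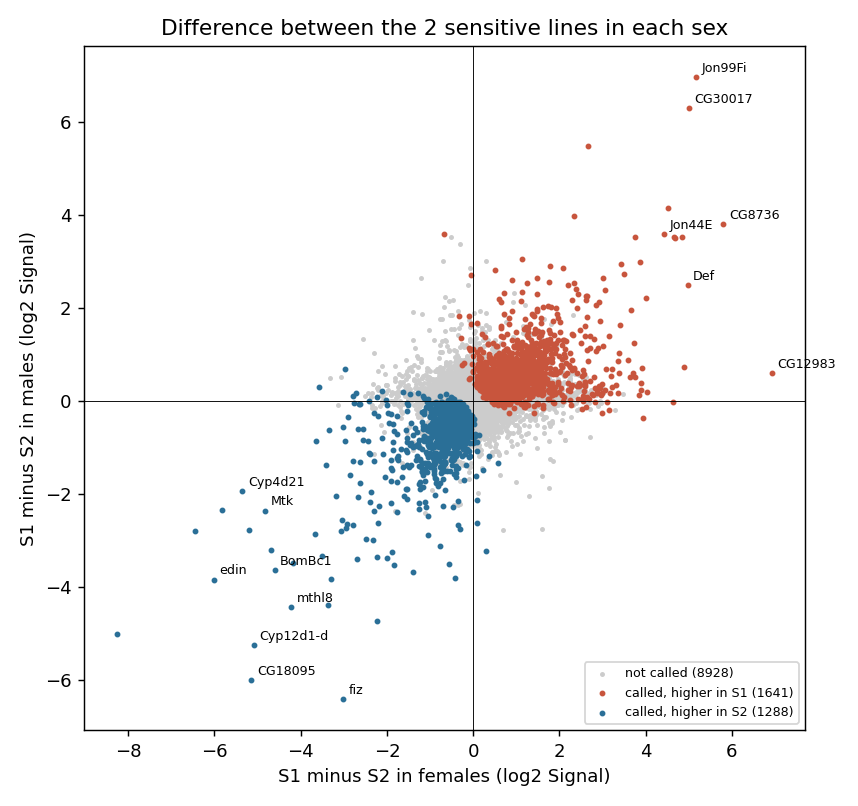
Each point is a probe set, with its S1 minus S2 difference in females on the x axis and in males on the y axis (log2 Signal). Red points were called higher in S1 (1641), blue points higher in S2 (1288) and grey points were not called; *Jon99Fi*, with 5.17 in females and 6.97 in males, lies far out in both sexes, whereas *CG12983*, with 6.93 and 0.60, does so in females alone.

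Digestive proteases gave the largest difference of any named gene. *Jon99Fi*, a Jonah serine protease of the midgut, had Signals of 4057 and 2364 in S1 males and 12704 and 10413 in S1 females, against 37.4 and 16.4 in S2 males and 360 and 283 in S2 females. All S1 pools were above all S2 pools, by 6.07 ± 0.21 on the log2 scale (SE; limma, adjusted p = 7.52e-12), or 67.2-fold, and by 5.17 on log2(Signal + 50), S2 males being under a Signal of 50. The 16 arrays of the other 4 lines ranged from 4495 to 17178. All S2 pools lay far below this range, and the S1 male pools lay below it as well. *Jon44E*, of the same family, read 1621 and 1705 in S1 males, 4583 and 3869 in S1 females, 134 and 142 in S2 males and 197 and 193 in S2 females. Its lines again did not overlap, with a difference of 4.01 ± 0.10 (limma, adjusted p = 2.41e-13), and the other lines had 1181 to 3809. For *betaTry*, a trypsin of the midgut, Signals were 19154, 16994, 13780 and 23001 in S1 and 3317, 3544, 3288 and 3485 in S2, males before females. The *betaTry* difference was 2.40 ± 0.15 (limma, adjusted p = 1.12e-08).

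Other proteases of the gut were closer between the lines. Of 27 digestive serine proteases tested, 12 were higher in S1 and 5 higher in S2 (63% called), with a median difference of 0.26, where the median over all tested probe sets was 0.03. *Jon99Ci* (1.96), *Jon25Bii* (1.89) and *Jon66Ci* (1.81) were among those higher in S1, and *Ser7* (-0.93), *Ser8* (-0.89) and *Jon74E* (-0.75) among those higher in S2. *Jon65Aiii*, whose Signal was 15592 to 23316 on all 8 arrays, differed by 0.20 and was not called. Several Jonah genes have close copies, and *Jon99Fi* has a near-identical neighbour whose transcripts the probe set may share.

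**Figure D2:**
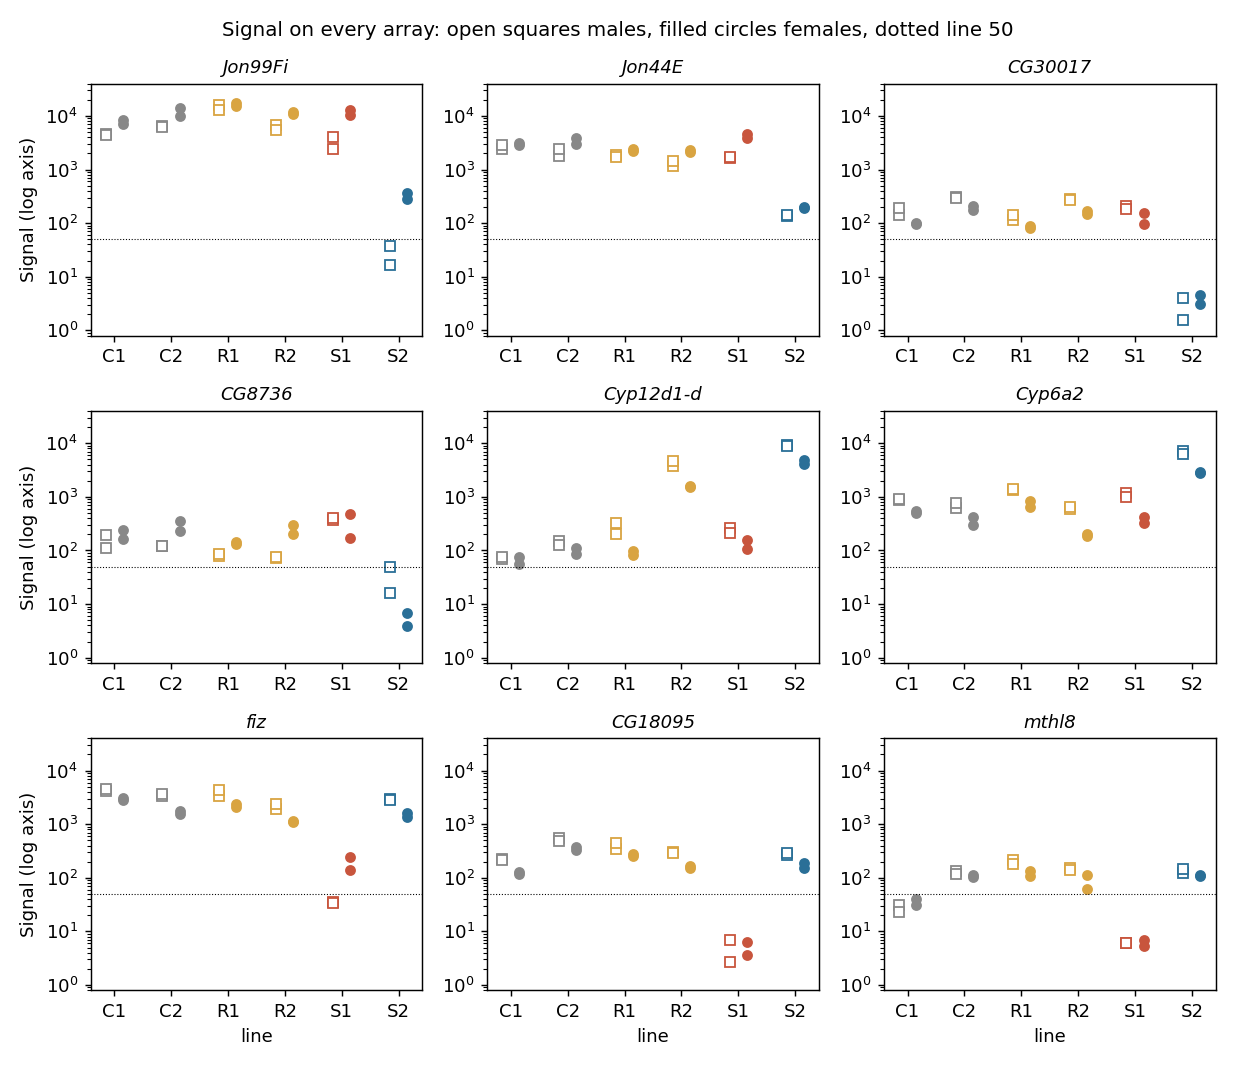
Signal on a log axis for 9 genes on every array of the 6 lines, with open squares for male pools, filled circles for female pools and a dotted line at 50. S2 stands below the other lines for *Jon99Fi*, *Jon44E*, *CG30017* and *CG8736* and above them for *Cyp12d1-d* and *Cyp6a2*, while S1 stands below them for *fiz*, *CG18095* and *mthl8*.

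Immune-induced genes were higher in S2. Of 23 antimicrobial and immune-induced peptides tested, 17 were higher in S2, 2 were higher in S1 and 4 were not called (82.6% called), with a median difference of -1.38. Of the same 23 peptides, 14 were called between R1 and R2 and 6 between C1 and C2 (all tested: 10.1% and 9.86%). Their median R1 minus R2 difference was 0.77. *BomBc1*, a Bomanin peptide secreted after Toll activation, had Signals of 525 and 578 in S1 males and 125 and 242 in S1 females, against 7065 and 6685 in S2 males and 4384 and 4065 in S2 females. The lines lay far apart in both sexes, by -4.12 ± 0.35 (limma, adjusted p = 3.87e-07), and no array of the other 4 lines exceeded 1971. *DptB*, diptericin B, an antibacterial peptide induced through Imd, read 142, 348, 46.5 and 173 in S1 and 1926, 2237, 4996 and 1053 in S2. Here the other lines spread from 38.1 to 6013, so that C2 pools reached the level of S2. The *DptB* difference was -3.95 ± 0.61 (limma, adjusted p = 1.76e-04).

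*Mtk*, which encodes metchnikowin, an antifungal peptide, stood at 1631 and 2595 in S1 males, 201 and 628 in S1 females and 8335 to 12101 in S2. Each S2 pool was above each S1 pool, and the difference was -3.59 ± 0.47 (limma, adjusted p = 3.81e-05). *IM10* (-3.04), *BomT3* (-2.73), *BomS1* (-2.37), *CecB* (-1.46) and *Drs* (-1.27), the last of which encodes drosomycin, were higher in S2 as well. A pair of genes outside the list, *edin* and *GNBP-like3*, followed the same direction. *edin*, a gene induced by infection, had 4.95 to 61.3 in S1 and 219 to 790 in S2, and *GNBP-like3*, related to proteins that bind microbial glucans, had 409 to 1322 in S1 and 6907 to 10466 in S2. The *edin* difference of -4.93 ± 0.79 (limma, adjusted p = 2.47e-04) came to -2.63 on log2(Signal + 50), since S1 was near or under a Signal of 50. C2 was as high as S2 for *edin*, at 220 to 801, and C1 as low as S1, at 5.1 to 15.6. These control lines differed by -5.88 (limma, adjusted p = 1.4e-04). R1 had 23.5 to 210 and R2 3.29 to 9.73. For *GNBP-like3* the other 4 lines had 66.5 to 1595.

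Not all peptides moved together. *Def*, which encodes defensin, had 60.5 and 80.1 in S1 males and 764 and 1136 in S1 females, against 32 and 4.79 in S2 males and 24.9 and 35.6 in S2 females. The lines were apart in both sexes, by 3.73 ± 0.61 over both (limma, adjusted p = 2.88e-04), or 2.23 on log2(Signal + 50) with all S2 arrays under 50, and the male (2.49) and female (4.97) differences did not differ past the threshold (limma, adjusted p = 0.298). *AttA*, for attacin A, was low in both lines, at 25.6 to 230 in S1 and 2.13 to 13.6 in S2, and its difference of 4.07 became 1.22 on log2(Signal + 50). Other arrays reached 1984 for *AttA*, so both sensitive lines were in the lower part of the range over lines. Of 10 recognition proteins and lysozymes (40% called), *PGRP-SB1* (-1.77), *PGRP-SD* (-1.52) and *PGRP-SA* (-1.06), which bind bacterial peptidoglycan, were higher in S2 and *LysP*, a salivary gland lysozyme, was higher in S1 (1.40).

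Detoxification genes differed in both directions. Of 70 cytochrome P450s, 18 were higher in S1 and 16 higher in S2 (48.6% called), with a median of 0.05. *Cyp12d1-d*, a mitochondrial P450 known to respond to xenobiotics, had Signals of 264 and 212 in S1 males and 108 and 158 in S1 females, against 9346 and 8882 in S2 males and 4773 and 4117 in S2 females. The difference was -5.17 ± 0.16 (limma, adjusted p = 1.74e-12), or 36.1-fold, and a near-identical copy, *Cyp12d1-p*, may add to the Signal. Of the other lines, R2 was also high, at 3797 and 4605 in males and 1529 and 1580 in females, whereas C1, C2 and R1 lay between 56.3 and 323. *Cyp6a2*, a P450 tied to insecticide resistance, had 1166, 986, 327 and 422 in S1 and 7137, 6284, 2761 and 2892 in S2. It differed by -2.79 ± 0.12 (limma, adjusted p = 1.36e-10), with no array of the other lines above 1416.

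*Cyp4d21*, a P450 of the male head fat body, was higher in S2 by -3.65 ± 0.39 (limma, adjusted p = 4.01e-06). In males it had 355 and 444 in S1 and 1785 and 1306 in S2, and in females 3.09 and 1.77 in S1 and 85.5 and 106 in S2, so that part of the difference rested on Signals near the floor; it was -1.65 on log2(Signal + 50). In the opposite direction stood *Cyp6a16* (2.73), *Cyp28a5* (2.44), *Cyp6a23* (1.45) and *Cyp4ac2* (1.15). *Cyp6a16* had at most 78.7 in either line and a difference of 0.87 on log2(Signal + 50).

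Conjugating enzymes were likewise divided. Of 32 glutathione S-transferases, 8 were higher in S1 and 8 higher in S2 (50% called), with a median of -0.03. *GstE7* had 1613, 1205, 753 and 1054 in S1 and 381, 330, 309 and 325 in S2, and did not overlap in either sex (1.73 ± 0.11; limma, adjusted p = 1.88e-08). *GstE11* went the other way, with 325, 258, 443 and 504 in S1 and 754, 768, 1093 and 1149 in S2 (-1.32 ± 0.12; limma, adjusted p = 6.03e-07). Of 25 UDP-glycosyltransferases, 3 were higher in S1 and 5 higher in S2 (32% called, against 24.7% of all tested probe sets), with *Ugt50B3* (-1.21) and *Ugt37A3* (0.82) at the ends. *Prx6c*, a peroxiredoxin that reduces peroxides, had 431 and 364 in S1 males, 26.4 and 78 in S1 females, 3957 and 4050 in S2 males and 575 and 466 in S2 females. C2 was near or above S2, at 3451 and 4105 in males and 855 and 941 in females. C1 minus C2 was -2.33 and R1 minus R2 was 2.35 (limma, adjusted p = 1.76e-05 and 1.32e-05). The *Prx6c* difference between S1 and S2, -3.42 ± 0.25 (limma, adjusted p = 8.25e-08), was the largest of 16 antioxidant enzymes. Of these 1 was higher in S1 and 2 higher in S2 (18.8% called, below the 24.7% of all tested probe sets).

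In the lists of sugar use and of fatty acid synthesis, storage and oxidation, more of the called genes were higher in S2 than in S1. Of 17 fatty acid elongases, 2 were called higher in S1 and 0 higher in S2 (11.8% called, below the 24.7% of all tested probe sets). Their median was -0.17, toward S2, and the calls of *CG31522* and *bond* were each lost without some array. Of 16 maltases, amylases and alpha-mannosidases, 6 were higher in S2 and 3 higher in S1 (56.2% called), with a median of -0.80. *Mal-A7*, a maltase that splits disaccharides in the gut, had 3752 and 2669 in S1 males, 415 and 1245 in S1 females, 9041 and 10089 in S2 males and 5513 and 4855 in S2 females. The lines were apart in both sexes, by -2.22 ± 0.31 (limma, adjusted p = 7.12e-05), although the pools of S1 females differed by more than those of the other groups. *Mal-A8* (-1.97) and *Mal-B2* (-1.64) followed it, and *LManI* (1.27) and *Mal-B1* (1.06) were higher in S1.

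Of 27 genes that break down or make glucose and trehalose, 2 were higher in S1, 5 higher in S2 and 20 not called. The 25.9% called lay near the 24.7% of all tested probe sets, and the median of 0.26 was toward S1. *Pepck1*, which encodes phosphoenolpyruvate carboxykinase, had 5485 and 5513 in S1 males, 1328 and 1433 in S1 females, 13103 and 13950 in S2 males and 7353 and 6263 in S2 females. The pools agreed closely within each group, and the difference was -1.80 ± 0.09 (limma, adjusted p = 5.52e-10). *Pepck2* differed by -1.80 ± 0.38 (limma, adjusted p = 0.00234), *fbp*, fructose bisphosphatase, by -0.51 ± 0.14 (limma, adjusted p = 0.018), and *Ldh*, lactate dehydrogenase, by -1.14 ± 0.20 (limma, adjusted p = 4.82e-04). Of 23 genes that make, store or oxidize fatty acids, 8 were higher in S2, among them the lipase *CG5966* (-1.06), the acyl-CoA oxidase *Acox57D-p* (-0.98) and the mitochondrial beta-oxidation gene *Mtpalpha* (-0.79), and 3 were higher in S1 (47.8% called, median -0.12).

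Genes that handle alcohol, aldehydes and acetate differed by less than 2-fold, with the exception of *CG8745*. Of 17 tested, 3 were higher in S1 and 6 higher in S2 (52.9% called), with a median of 0.06, and the 2 probe sets annotated to *Adhr* and *Adh* together (Adhr/Adh) were left out of the list; over both sexes they differed by 0.32 ± 0.13 (limma, adjusted p = 0.0806) and 0.61 ± 0.20 (limma, adjusted p = 0.0336). *Aldh*, the mitochondrial aldehyde dehydrogenase that oxidizes acetaldehyde, had 5523 and 5109 in S1 males, 3604 and 4782 in S1 females, 7083 and 6905 in S2 males and 6026 and 6640 in S2 females. Every S2 pool was above the S1 pools of its sex, with a difference of -0.50 ± 0.09 (limma, adjusted p = 6.17e-04). *Sodh1*, a sorbitol dehydrogenase (-0.66), *Fdh*, formaldehyde dehydrogenase (-0.50), *Men*, malic enzyme (-0.36), and *AcCoAS*, acetyl-CoA synthetase (-0.27), were higher in S2 by similar amounts. *CG8745*, of the aminotransferase family and not an enzyme of ethanol oxidation, had 1534, 1681, 1123 and 1359 in S1 and 729, 684, 370 and 305 in S2 (1.53 ± 0.09; limma, adjusted p = 4.50e-09).

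Genes implicated in alcohol sensitivity before the study were listed by its authors, and 43 probe sets of 33 of these genes were tested. Of them 15 were called (34.9%, against 24.7% of all tested), 8 higher in S1 and 7 higher in S2 (all tested: 13.8% and 10.9%), between -0.62 and 1.09. *NPFR*, the receptor of neuropeptide F, had 109 and 113 in S1 males, 74.3 and 52 in S1 females, 52.9 and 65.9 in S2 males and 36.4 and 18.3 in S2 females. It was higher in S1 by 1.09 ± 0.25 (limma, adjusted p = 0.00477), and by 0.56 on log2(Signal + 50). The clock gene *per* (0.84), the GABA receptor subunit *Lcch3* (0.60), the odorant-binding protein *lush* (0.49), the small GTPase *Rac2* (0.48) and the cell adhesion gene *Fas2* (0.31) were higher in S1, and *Pka-C1*, the catalytic subunit of protein kinase A (-0.45), *Pld*, phospholipase D (-0.31), and *Cdc42* (-0.23) higher in S2. Several of these small differences depended on single arrays: the calls of *per*, *lush*, *Rac2*, *Fas2*, *Pld*, *Pka-C1* and *Cdc42* were each lost without some array, with limma adjusted p-values up to 0.0809, 0.107, 0.179, 0.179, 0.137, 0.183 and 0.162. The calls of *Pka-C1* and *Cdc42* were also lost with a replicate block (limma, adjusted p = 0.053 and 0.0512). Of 4 *Fas2* probe sets only the one above was called, and the others had 0.15, 0.01 and 0.28. Aldolase, *Ald1*, gave opposite readings: the probe set with the lower value was called (-0.62), and a second one had 0.28 and was not called (limma, adjusted p = 0.177).

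Muscle, cuticle, eye and odorant-binding genes were higher in S1, and here the S1 female pools have to be read separately. Of 21 muscle genes, 17 were higher in S1 and 0 higher in S2 (81% called), with a median of 0.96. *Mlc2*, a myosin light chain, had 13215, 14551, 9662 and 13943 in S1 and 5891, 5266, 2917 and 2481 in S2, so that the lines were apart in both sexes (1.71 ± 0.14; limma, adjusted p = 3.40e-07). *Tm2* (1.38), *TpnC41C* (1.26) and *Tm1* (1.23), all of the thin filament, were higher in S1 as well. The transcripts of the indirect flight muscle behaved otherwise: *fln*, flightin, had 6695 and 16908 in S1 males, 438 and 17847 in S1 females, 2655 and 2416 in S2 males and 1151 and 1279 in S2 females. *TpnC4* had 374 and 13223 in the S1 female pools, and *Act88F* 1699 and 24250. *Act88F* was called (2.22 ± 0.56; limma, adjusted p = 0.00892), whereas *fln* (1.64) and *TpnC4* (0.39) were not. Leaving out pool 1 of S1 females gave 20 muscle genes higher in S1 and a median of 1.02, and leaving out pool 2 gave 17 and a median of 0.65.

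**Figure D3:**
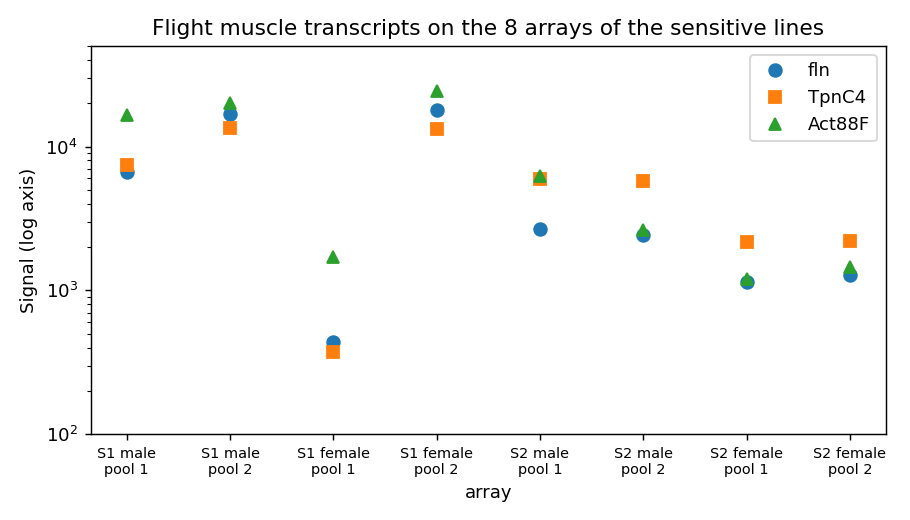
Signal of 3 flight muscle transcripts on a log axis for each of the 8 arrays. Pool 1 of S1 females lies more than 10-fold below pool 2 for all of them, while the S2 female pools lie side by side.

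Among 26 cuticular proteins, 13 were higher in S1 and 2 higher in S2 (57.7% called), with a median of 0.65. *Acp65Aa*, a protein of the adult cuticle, had 876 and 405 in S1 males, 2707 and 8232 in S1 females, 43.5 and 62.5 in S2 males and 147 and 184 in S2 females. The difference was 4.18 ± 0.36 (limma, adjusted p = 5.17e-07), or 3.57 on log2(Signal + 50), and no S2 array overlapped with S1 in either sex. *Cpr62Bb* (3.11), *Cpr92F* (2.82) and *Cpr49Ae* (2.52), with the chitin-binding domain of their family, also were higher in S1, and *Cpr73D* (-0.99) and *Cpr47Ef* (-0.87) in S2. Of 20 phototransduction genes 12 were higher in S1 and 0 higher in S2 (60% called), at a median of 0.43, with 15 called in females and 1 in males. *trp*, the light-activated channel, differed by 0.64, *chp*, chaoptin, by 0.69 and *Rh4*, a UV opsin, by 0.40. Of 31 odorant-binding proteins 18 were higher in S1 and 2 higher in S2 (64.5% called), at a median of 0.49. *Obp83g* had the largest difference (4.09, or 1.48 on log2(Signal + 50)), with Signals of 71.1 to 158 in S1 and 3.87 to 9.67 in S2. *Obp28a* (1.01), *Obp19a* (0.92) and *Obp83b* (0.69) were higher in S1, and *Obp56h* (-1.09) and *Obp56d* (-0.35) higher in S2. The *Obp56h* call was lost without pool 1 of S2 males (limma, adjusted p = 0.0566).

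The level of the muscle genes on each array placed S2 at the low end, and in males S1 at the high end. Their median log2 Signal was 12.50 and 12.54 in S2 males and 11.28 and 11.51 in S2 females, below all arrays of the same sex in the other 5 lines. In S1 it was 13.26 and 13.60 in males and 12.74 and 13.47 in females. The other 4 lines had 12.75 to 13.15 in males and 12.31 to 13.21 in females, so that both S1 male arrays lay above them. For the phototransduction genes, S2 females had 9.38 and 9.49 and S1 females 10.40 and 10.43, with 9.76 to 10.51 in the females of the other 4 lines. In males S2 had 10.38 and 10.67 and overlapped with the other 4 lines, at 10.52 to 10.98, while S1 had 10.86 and 10.89; 13 of these 20 genes were also called between C1 and C2, against 12 between S1 and S2. The antimicrobial peptides ran the other way, at 12.65 to 13.29 on the S2 arrays, 10.68 to 11.68 on the S1 arrays and 10.77 to 12.32 elsewhere. The part that tissue makeup of the pools plays in these levels was not tested.

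**Figure D4:**
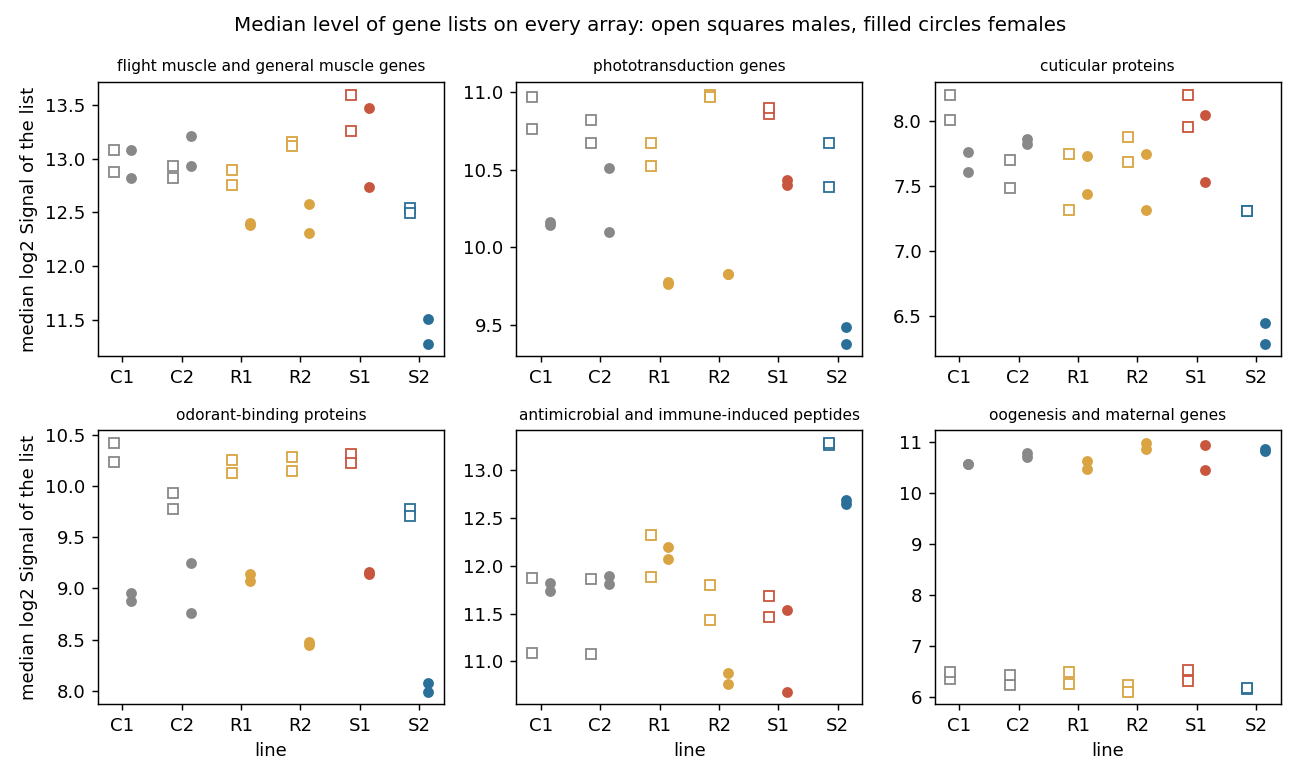
Median log2 Signal of the members of 6 gene lists on every array (y axis) by line (x axis), open squares for male and filled circles for female pools. S2 is lowest for muscle genes in both sexes, for cuticle and odorant-binding genes in females, and highest for antimicrobial peptides. In males S2 is almost level with another line for cuticle genes (7.307 and 7.312, against 7.318 on an R1 array). The same holds for odorant-binding genes in males (9.777 and 9.713, against 9.778 on a C2 array). Oogenesis genes separate the sexes and not the lines.

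**Figure D5:**
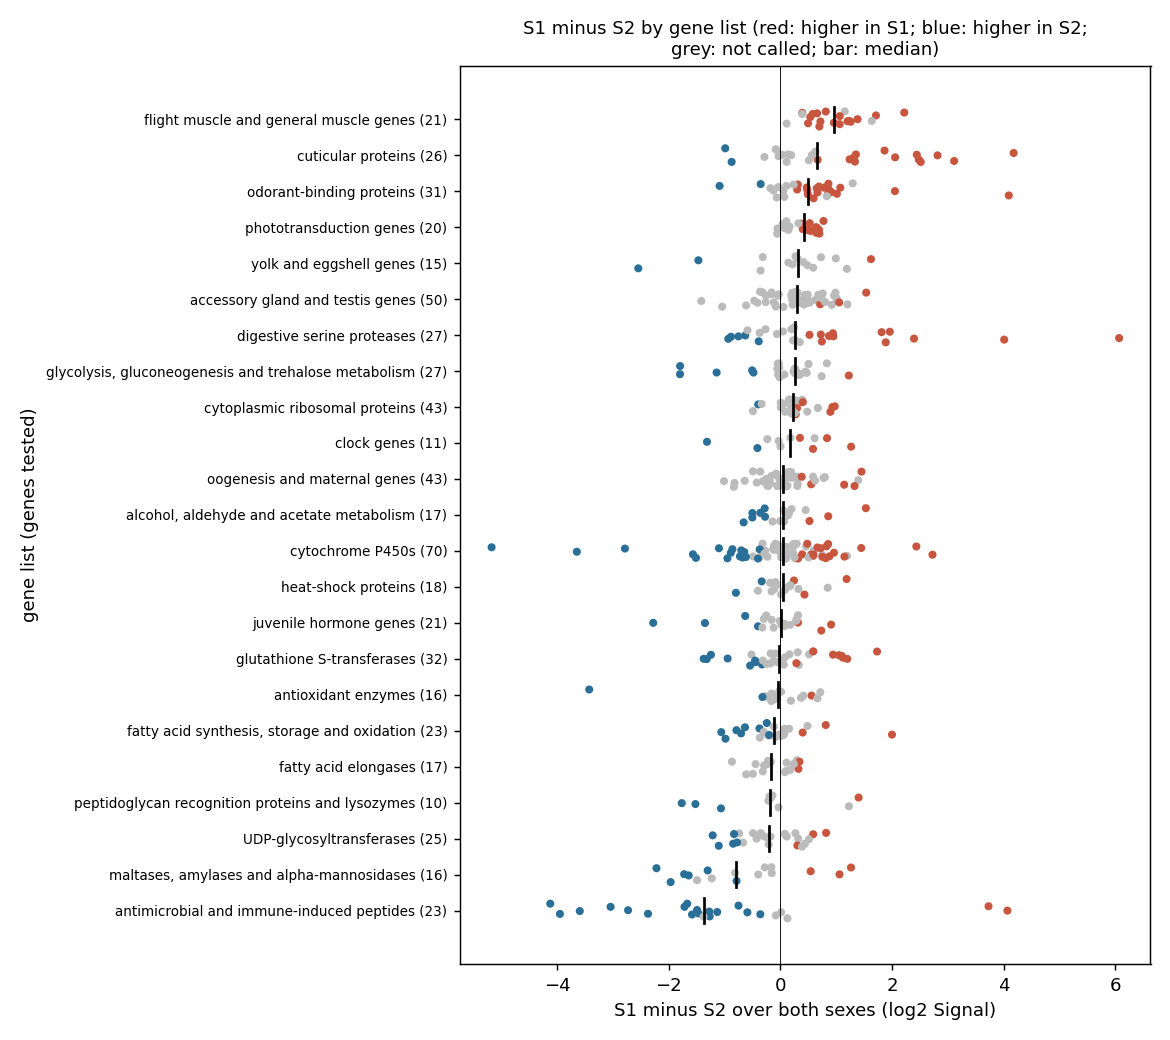
S1 minus S2 (log2 Signal, both sexes) for each tested gene of 23 lists, red where called higher in S1, blue where called higher in S2, grey where not called, with a bar at the median. Medians run from 0.96 for muscle genes to -1.38 for antimicrobial and immune-induced peptides.

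Some of the sharpest differences belonged to single genes that were below a Signal of 50 in S1 or in S2. *CG30017* had 213 and 181 in S1 males and 152 and 94.4 in S1 females, against 1.57 to 4.53 on the S2 arrays. Other lines had 80.7 to 307, so that S2 alone lay under a Signal of 50, and the difference of 5.65 came to 1.95 on log2(Signal + 50). *CG8736* was similar, with 170 to 471 in S1, 3.85 to 49.6 in S2 and 71.4 to 351 elsewhere (4.80, or 2.53 on log2(Signal + 50)). S1 was the low line for *CG18095*, with 2.69 to 6.85 against 155 to 294 in S2. *mthl8*, a receptor of the methuselah family, had 5.26 to 6.86 in S1 and 110 to 144 in S2; here C1 was also under 50, at 23.1 to 40.1, and C2, R1 and R2 had 60.9 to 211. *CG18095* and *mthl8* differed by -5.58 and -4.33 (limma, adjusted p = 1.36e-10 and 3.10e-09), and by -2.29 and -1.62 on log2(Signal + 50). Probe sequences were not examined here.

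*fiz*, fezzik, an oxidoreductase that acts on the molting hormone ecdysone, was low in S1 alone. Its Signals were 34.9 and 33.5 in S1 males and 141 and 250 in S1 females, against 2972 and 2880 in S2 males and 1645 and 1385 in S2 females, with 1105 to 4505 in the other lines. The difference was -4.71 ± 0.14 (limma, adjusted p = 1.20e-12), or 26.3-fold, and -3.92 on log2(Signal + 50), S1 males being under a Signal of 50. Juvenile hormone genes included *Jhe*, the esterase that degrades the hormone, with 39.4 to 109 in S1 and 296 to 483 in S2, where the other lines had 18.9 to 103. *Jhe* differed by -2.28 ± 0.30 (limma, adjusted p = 4.11e-05) and the epoxide hydrolase *Jheh1* by -1.35. Of 21 juvenile hormone genes 3 were higher in S1 and 4 higher in S2 (33.3% called, against 24.7% of all tested probe sets).

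The stress, reproductive, ribosomal and clock lists were also counted, against 24.7% called of all tested probe sets. Of 18 heat-shock proteins 3 were higher in S1 and 2 higher in S2 (27.8% called), from *Hsc70-1* (1.19) to *Hsp68* (-0.80). The 4 metallothioneins, which bind heavy metals, included *MtnC* (1.01) and *MtnD* (0.80), both higher in S1. Of 50 accessory gland and testis genes 3 were higher in S1 and 0 higher in S2 (6% called), and of 43 oogenesis and maternal genes, a list added after values had been seen, 5 and 0 (11.6%). Within males the accessory gland and testis list had 0 higher in S1 and 1 in S2. Within females it had 3 and 1, at median log2 Signals of only 2.84 to 3.51 in these lines. The oogenesis list had 6 and 0 in males, at medians of 6.16 to 6.53, and 1 and 2 in females. Cytoplasmic ribosomal proteins had 7 of 43 higher in S1 and 1 higher in S2 (18.6% called), with a median of 0.22 that became -0.03 after quantile normalization within each sex. Clock genes were few and divided (54.5% called): of 11, *Pdp1* (1.27), *per* (0.84), *dco* (0.58) and *cwo* (0.35) were higher in S1, and *Clk* (-1.31) and *tim* (-0.41) higher in S2. *Clk*, the activator of *per* and *tim*, had 365 and 458 in S1 males and 826 and 882 in S2 males, and 144 and 90.8 in S1 females against 401 and 286 in S2 females.

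The size of the line difference depended on sex for 188 probe sets (1.59% of those tested), and for 122 of these the lines differed in opposite directions in males and females. The count was 1534 without pool 1 of S1 females and 78 without pool 2 of S2 females. *CG12983* had 865 and 1094 in S1 males and 678 and 611 in S2 males, but 137 and 160 in S1 females and 0.81 and 1.47 in S2 females. The male minus female difference was -6.34 ± 0.43 (limma, adjusted p = 1.10e-06), and -1.40 on log2(Signal + 50), since S2 females were at the floor; females of C1, with 112 and 111, were like those of S1, whereas females of C2, R1 and R2 had at most 2.79. *CG10947* was alike in males, at 422 to 544, and separated the females, at 67.3 and 119 in S1 and 6.88 and 4.42 in S2, with a male minus female difference of -3.83 that became -1.17 on log2(Signal + 50). *Lsp2*, a storage protein of larvae, was higher in S1 males, at 2958 and 2141 against 945 and 1071, and lower in S1 females, at 90.4 and 180 against 679 and 820 (3.87 ± 0.59; limma, adjusted p = 0.00377).

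Genes high in females alone made up the rest of the largest sex differences, and each rested on male Signals under 50. *dec*, defective chorion, had 5638 and 3517 in S1 females and 1511 and 1457 in S2 females, against at most 32.6 in males. *Pxt*, a peroxidase of the follicle cells, had 2568 and 2373 in S1 females and 3535 and 4378 in S2 females, with 31.7 and 37 in S1 males and 3.31 and 2.48 in S2 males. *CG5568* had 936 and 394 in S1 females and 1269 and 1573 in S2 females, and at most 9.5 in males. The sex differences of *dec* and *CG5568* were lost without 4 and 5 of the 8 arrays in turn (limma, adjusted p up to 0.103 and 0.121). *Yp1* followed the same form, with 17134 and 21652 in S1 females and 15206 and 16050 in S2 females, while males had 2.47 and 1.67 in S1 and 18.3 and 20.2 in S2.

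S2 held an end of the range over lines for more probe sets than S1. Ranked by line means over both sexes, S2 was the highest or lowest of the 6 lines for 75.5% of the called probe sets (46.3% of all tested) and S1 for 50% (33.7%), with both at opposite ends for 32.8% (12.5%). S2 was the farther of the 2 from the mean of the control lines for 71.9% of called probe sets, against 61.8% of all tested, and the sensitive lines lay on opposite sides of that mean for 75.9% (47.9%). A call between S1 and S2 by itself favours probe sets with either line at an end, so that the shares of called probe sets are descriptions. With the same fit, R1 and R2 differed in 1201 probe sets (10.1%) and C1 and C2 in 1169 (9.86%). The counts for the 3 pairs became 1551, 1320 and 983 when each pair was fitted on its own 8 arrays, and the difference between counts was not tested.

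Called genes lay on all major chromosome arms. By the RefSeq gene table for the Release 6 assembly, 9935 tested genes were placed on chromosomes. The share called was 26.4% on 2L, 27.8% on 2R, 23.8% on 3L, 23.3% on 3R, 22.4% on X and 36.1% of the 61 genes on 4. A gene next to a called gene was itself called in 28.7% of cases, against 23.6% next to a gene that was not called, and 61% of neighbouring called pairs had the same direction, against 53.6% of all neighbouring pairs. The longest run in the same direction was 7 neighbours on 3R, all higher in S1, which included the P450s *Cyp12a5* (0.83) and *Cyp12a4* (0.96). Another on 2R held 5 Bomanin genes, *BomBc2*, *BomS2*, *BomS3*, *BomT2* and *BomS5*, all higher in S2, with differences from -0.75 to -1.72. Bomanin genes are near copies of each other, so that their probe sets may share Signal.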

How the data were processed

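The authors summarized each array with MAS5 and deposited the Signal, an intensity per probe set on a linear scale, scaled between arrays; the trimmed mean was 500.0 on every array. Aligners do not apply to arrays. Of 18952 probe sets, 183 controls were left out, and 11857 with a Signal of at least 50 on at least 12 of 24 arrays were tested, a stand-in for detection calls, which were not used. The number of arrays limits the precision. A floor of 1 (325 of 284568 values) preceded the log2 transformation. R 4.3.3 with limma 3.58.1 (lmFit, eBayes with an intensity trend) fitted 1 mean for each of 12 groups of line and sex, with 12 residual and 4.03 prior degrees of freedom. Contrasts were S1 minus S2 over both sexes, in males, in females and males minus females, and line 1 minus line 2 for the resistant and control lines, with Benjamini-Hochberg adjustment over all tested probe sets. Scripts were tested on simulated data.

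Names came from the platform table (13646 probe sets with 1 symbol, 402 with several) and, for 145 more, from name columns of the study's supplementary tables; 4576 had none. Named genes were the 12 with the largest differences in each direction among called probe sets with 1 symbol, lines not overlapping in either sex and a mean Signal of at least 100 in the higher line; the 6 with the largest sex differences; up to 4 called members of each list; and called members of the authors' alcohol list. Some named genes are not described above, among them *AANATL2* (3.425), *Vajk3* (3.19) and *CG14205* (3.16), higher in S1, and *CG4757* (-4.00), higher in S2. Further list members are given as examples and were chosen after their values were seen. Each list took 1 probe set a gene. The members and lists were chosen with earlier results of these data known, and wrongly matched symbols were taken out of several lists after values were seen. Beside the lists in the text, 15 yolk and eggshell genes (1 higher in S1, 2 in S2) and 1 Turandot stress gene (not called) were counted. Alternatives changed the filter, the pseudocount, the normalization, the variance model, the samples fitted, a replicate block, the scale, the threshold and each array in turn.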

Additional observations from a re-analysis of the deposited data

Results flagged for a closer look

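The S1 minus S2 difference depended on sex for 188 probe sets, by the test of the male minus the female difference in limma at an adjusted p under 0.05. Among the genes named in the report, the male minus female value on the log2 scale was 1.80 for *Jon99Fi*, 1.00 for *Pepck1*, 1.41 for *Hsp68* and 3.41 for *Cyp4d21*, and -0.85 for *Jon44E*, -1.05 for *Mal-B2* and -3.41 for *fiz*. For *Jon99Fi*, *Jon44E*, *Pepck1*, *Mal-B2*, *fiz* and *Cyp4d21* both sexes differed in the same direction, by unequal amounts. On log2(Signal + 50) the male minus female value was 0.40 for *Jon99Fi* and -0.35 for *Cyp4d21*, neither past the threshold (limma, adjusted p = 0.493 and 0.543), and -2.44 for *fiz* (limma, adjusted p = 1.33e-05). *Hsp68*, a heat-inducible chaperone, differed by -0.09 in males and -1.50 in females.

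The value furthest from 0 was -6.34 for *CG12983*, and *CG10947* had -3.83; both were called in females and not in males. S2 females had Signals of 0.81 and 1.47 for *CG12983*, at or near the floor of 1, and 6.88 and 4.42 for *CG10947*. Both male minus female values rest on these low Signals, and were -1.40 and -1.17 on log2(Signal + 50). *Lsp2* had 3.87 and changed direction between the sexes. For *dec* (-4.35), *Pxt* (4.25), *CG5568* (3.86), *png*, a regulator of translation in the egg (2.75), *Yp1* (-3.54) and *fit*, a female fat body gene (-2.30), the males of at least 1 line had Signals under 50, and the log2 values rest on these low Signals. For *png* (0.58) and *fit* (0.12) the male minus female value was not past the threshold on log2(Signal + 50) (limma, adjusted p = 0.1 and 0.891).

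Without pool 1 of S1 females the count of 188 became 1534, and without pool 2 of S2 females it became 78.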

How the results depend on the processing

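Over both sexes, 2929 calls became 1551 on the 8 arrays alone and 814 at an adjusted p under 0.001. With the steps of the study's methods they became 1139. Those steps were run here with limma on log2 Signal. The study used an analysis of variance on Signal after a filter on detection calls. R1 and R2 went from 1201 to 1320 calls on their own 8 arrays, and C1 and C2 from 1169 to 983. What caused the shifts on 8 arrays and with the methods' steps was not tested. Male calls (1177) became 388 on the 8 arrays and 255 at 0.001, female calls (2590) became 1159, 502 and, with the methods' steps, 1023, and the 188 sex differences became 21, 14, 328 with a pseudocount of 50 and 640 in the analysis of variance on Signal. At 0.001, R1 and R2 kept 233 and C1 and C2 229 calls. Leaving out each array gave 2045 to 3726 calls over both sexes, 577 to 1649 in males, 1155 to 3798 in females and 78 to 1534 sex differences. On linear Signal, 41.5% of female calls were higher in S1 in place of 62.2%, and 54% of male calls in place of 41.7%; quantile normalization within each sex gave 49.2% over both sexes in place of 56%. That normalization also turned the small medians of P450s (-0.03), alcohol metabolism (-0.10), heat-shock (-0.06), juvenile hormone (-0.15) and ribosomal protein genes (-0.03). On linear Signal the difference of *Pxt* was -728, of *Yp1* 1874 and of *CycB* -19.2, reversed from the log2 scale. Replicate numbers showed no pairing among the sensitive groups: deviations of same-numbered arrays correlated at -0.03 to 0.03 over 6 pairs. Over the 66 pairs of all 12 groups these correlations ran from -0.15 to 0.18, with 4 over 0.1. A replicate block gave 2904 calls over both sexes, 1153 in males, 2548 in females and 153 for the sex difference. Of 119 named results, 76 kept call and direction in all planned settings and without any 1 array; 30 lost the call on the 8 arrays, 21 on linear Signal and 24 without some array, among them *Gpdh1*, *lush*, *Rac2*, *Fas2*, *Pld*, *Pka-C1*, *Cdc42*, *per* and *LManIII*.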
